A study of Mus musculus with 24 samples.

Results

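The collagen genes of the mouse genome were followed across 24 prostate tumors by bulk RNA sequencing. A gene was taken when GENCODE M21, the mouse gene annotation, lists it as protein-coding and its symbol has the form of a collagen chain (Col, a number, a, a number). This gave 42 of the 55401 genes in the count table. The 29 of them with a mean of 0.5 CPM or more over the 24 tumors are described in depth, and the other 13 are accounted for by name. CPM is the count of a gene relative to all counts on genes of its tumor, in the usual unit of counts-per-million, scaled between tumors with TMM factors, which correct for differences in RNA composition.

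The tumors grew from TC2Ras, a mouse prostate adenocarcinoma line, in male C57/BL6 mice of 8 to 10 weeks. The line was made from TRAMP-C2 cells given activated H-Ras and mouse androgen receptor by lentivirus. Every mouse received plasmid DNA in muscle by sonoporation (ultrasound with microbubbles). Subcutaneous (SC) tumors were taken 1 week after implantation from mice given empty vector (SC control, n = 2) or a vector for the cytokine IL-27 (SC IL-27, n = 2). Intratibial tumors, from TC2Ras-Luc cells placed in the tibia, were taken at day 14 (D14, 3 per group) or at the end of study (EOS, 2 per group, when a mouse reached its ethical endpoint). The 4 intratibial treatments were empty vector with PvP, the gavage vehicle (control), IL-27 vector with PvP (IL-27), empty vector with cabozantinib, an oral inhibitor of VEGF receptors, MET and AXL (cabo), and IL-27 vector with cabozantinib (IL-27+cabo). Vector was given to the tibialis anterior muscle beside the bone, and gavage went on until day 14, so the EOS tumors of the cabo groups were taken after dosing had ended. The labels give a mouse number for each intratibial tumor. SC cells were placed in both flanks, and nothing in the sources used here says whether the SC tumors of a group came from separate mice, so their p-values measure only the spread between these samples.

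Collagens are secreted proteins in which 3 chains wind into a triple helix. The fibrillar class (types I, II, III, V, XI, XXIV and XXVII) builds the rope-like fibrils of bone, tendon and stroma, with type I as the main protein of bone matrix and type III abundant in soft, newly laid connective tissue. Network collagens form sheets such as the basement membrane, FACIT collagens sit on the surface of fibrils, and the remaining chains form beaded filaments (type VI), anchoring fibrils (type VII), the basement membrane multiplexins (types XV and XVIII) or transmembrane proteins (types XIII, XVII, XXIII and XXV). In a bulk tumor these transcripts can come from fibroblasts, bone, muscle, vessels and the tumor cells alike, and fewer cells of a type cannot be told apart from less RNA per cell.

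The tumors held 63729005 to 83782258 counts each on genes. The 42 collagens took a mean of 1.19% of them (0.566 to 1.66% per tumor), and the described genes held 99.975% of the collagen counts. Among markers of the labelled cell type, the prostate gene Pbsn was listed at 0 in all 24 tumors, while the epithelial genes Krt8, Cdh1 and Epcam were at 2.05 to 260.5, 1.33 to 12.4 and 0.0932 to 6.15 CPM. Between 30.4% and 35.5% of the counts from 1 to 20 in a tumor were multiples of 4, so a low count may not stand for single reads.

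The proximal promoters of 5 described genes are shown because these genes carry the main results: Col3a1, Col6a3 and Col4a5 rose under cabo at D14, Col13a1 had the lowest fold change there, and Col1a2 is the type I chain whose ratio to Col1a1 stood apart in the SC IL-27 tumors. Each sequence is the 250 bases before the RefSeq gene start on GRCm38.p6, 5′ to 3′ on the strand of the gene, and capitals mark matches on either strand to 4 motifs. The first was the motif known as the CCAAT box, with those 5 letters. The second was the GC box of promoters that bind Sp factors, spelled GGGCGG. The third was the core of a TATA box in the spelling TATAAA. The last was the site of AP-1 factors, which was searched for as TGANTCA with any base at N. No match overlapped another in these windows. They lie at chr1:45311288-45311537 (plus strand, Col3a1), chr1:90843972-90844221 (minus, Col6a3), chrX:141475169-141475418 (plus, Col4a5), chr10:61979109-61979358 (minus, Col13a1) and chr6:4505368-4505617 (plus, Col1a2).
Col3a1: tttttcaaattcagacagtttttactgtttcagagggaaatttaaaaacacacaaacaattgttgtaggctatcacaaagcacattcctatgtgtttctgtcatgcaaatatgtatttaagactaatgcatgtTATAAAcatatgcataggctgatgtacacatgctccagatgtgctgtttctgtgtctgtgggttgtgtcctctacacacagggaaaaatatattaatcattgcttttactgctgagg
Col6a3: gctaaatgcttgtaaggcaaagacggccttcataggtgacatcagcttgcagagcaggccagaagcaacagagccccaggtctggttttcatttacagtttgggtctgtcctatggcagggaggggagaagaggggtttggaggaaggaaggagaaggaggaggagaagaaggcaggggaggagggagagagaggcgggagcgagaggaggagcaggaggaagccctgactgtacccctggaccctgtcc
Col4a5: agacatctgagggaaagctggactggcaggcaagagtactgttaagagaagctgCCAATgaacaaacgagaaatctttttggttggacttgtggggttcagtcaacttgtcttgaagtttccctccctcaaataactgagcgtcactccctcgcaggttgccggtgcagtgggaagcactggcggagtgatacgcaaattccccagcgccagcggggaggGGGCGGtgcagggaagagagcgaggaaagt
Col13a1: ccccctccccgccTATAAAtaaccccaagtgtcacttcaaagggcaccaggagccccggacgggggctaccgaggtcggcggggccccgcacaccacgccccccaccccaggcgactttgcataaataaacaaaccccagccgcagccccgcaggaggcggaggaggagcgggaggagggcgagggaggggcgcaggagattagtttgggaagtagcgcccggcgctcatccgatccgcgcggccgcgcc
Col1a2: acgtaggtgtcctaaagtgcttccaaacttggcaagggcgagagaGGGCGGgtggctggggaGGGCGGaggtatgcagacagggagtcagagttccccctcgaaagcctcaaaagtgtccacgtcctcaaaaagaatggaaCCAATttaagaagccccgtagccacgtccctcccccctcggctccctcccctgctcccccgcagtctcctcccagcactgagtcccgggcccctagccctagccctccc
The Col3a1 window had a GC content of 35.2% and a TATAAA 117 bases before the start, whereas the Col13a1 window had a GC content of 68.8% with a TATAAA 237 bases before the start. The Col4a5 window held a CCAAT and a GGGCGG, the Col1a2 window a CCAAT and 2 GGGCGG, and the Col6a3 window none of the 4 motifs. The RefSeq start of Col1a2 lies 804 bases inside the GENCODE gene, and that of Col4a5 lies 34 bases from the GENCODE start. RefSeq promoter sequences were matched for 24 of the 29 described genes, with 1 start per gene, the nearest to the GENCODE start. The set beside them was the whole promoter table, not limited to 1 start per gene or to protein-coding genes. Of these 24, 15 (62.5%) held a GGGCGG, against 32.7% of the 32851 promoters of the same length in the table, 8 (33.3%) a CCAAT against 33.8%, 4 (16.7%) a TATAAA against 12.4%, and 1 (4.17%) a TGANTCA against 6.75%.

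Levels of different genes were compared as CPM per kb of exon. Among fibrillar genes the mean over the 24 tumors was highest for Col3a1 (type III; ENSMUSG00000026043, chr1:45311538-45349706, plus strand) at 328 CPM per kb. Col1a1 (type I alpha 1; chr11:94936224-94953042, plus) followed at 265, Col1a2 (type I alpha 2; chr6:4504814-4541544, plus) at 114, Col5a2 at 47.3, Col5a1 at 44.7 and Col5a3 at 40.9 CPM per kb, the last 3 being type V chains that set fibril width. Col27a1, Col11a1, Col24a1 and Col11a2, at 0.379 to 3.21 CPM per kb, made up the low end of the 10 described fibrillar genes.

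Col18a1, whose C-terminal fragment is endostatin, led the 11 described genes outside the 3 named classes at 212 CPM per kb. The type VI chains Col6a1 (176), Col6a3 (94.4) and Col6a2 (49.1 CPM per kb) came next, with Col6a1 and Col6a2 lying on the same strand of chromosome 10. Col15a1 stood at 20.2 CPM per kb and Col7a1, the anchoring fibril chain of skin, at 1.82. The transmembrane genes Col23a1, Col13a1 and Col17a1 stood at 0.237 to 0.603 CPM per kb.

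Col16a1 was the highest of 5 described FACIT genes (21.9 CPM per kb), followed by Col14a1 (3.28), Col12a1 (1.27), Col20a1 (0.183) and Col9a3 (0.167). Of 3 described network genes, Col4a5 (10.7) and Col8a1 (10.5) were close and Col4a6 was lower at 0.968 CPM per kb. Col4a5 and Col4a6, basement membrane chains, lie head to head on chromosome X (chrX:141475385-141689234, plus, and chrX:141165403-141474076, minus). Col9a3 lay just inside the 0.5 CPM limit at a mean of 0.644 CPM, and Col2a1, the cartilage fibril chain, just outside it at 0.453 CPM.

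**Figure D1:**
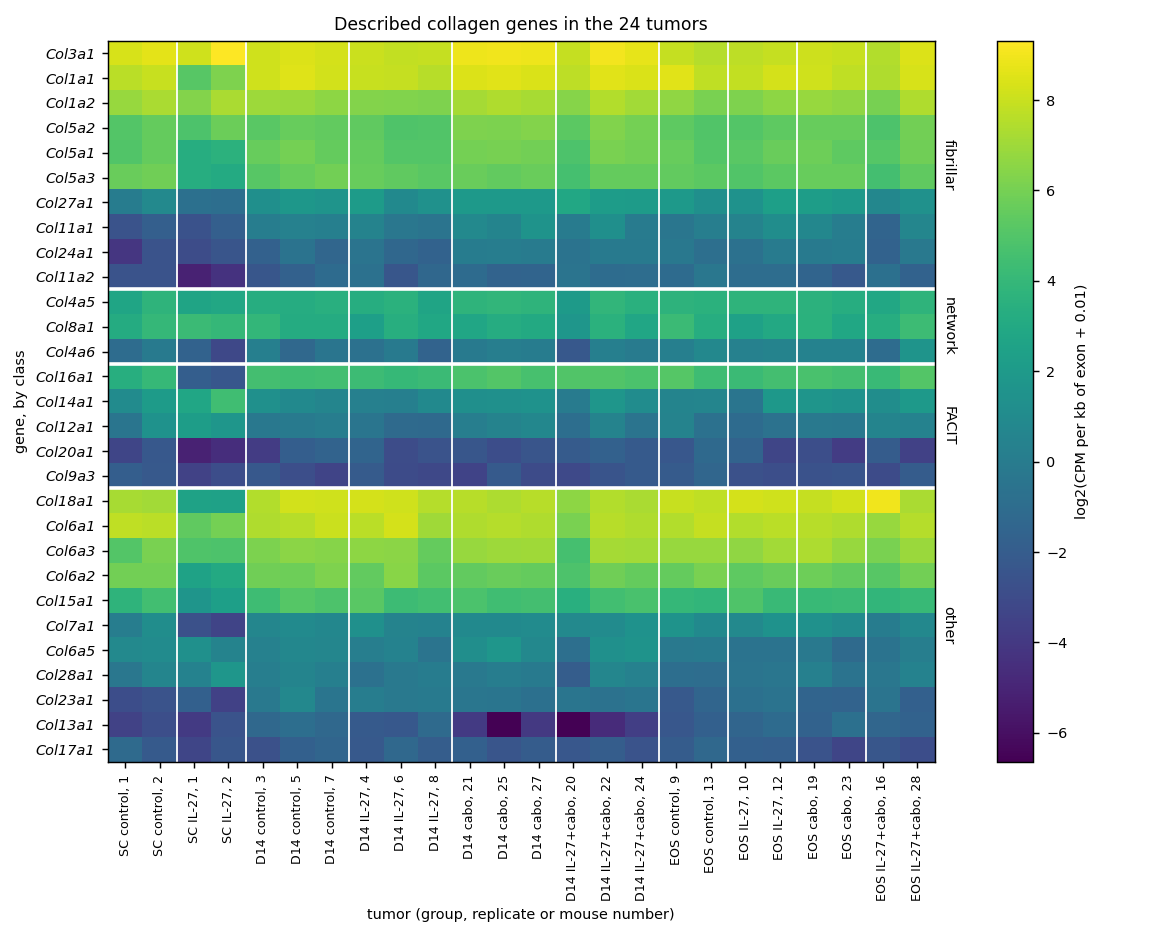
Level of the 29 described collagen genes (rows, by class) in each of the 24 tumors (columns, by group), as log2(CPM per kb of exon + 0.01). Fibrillar genes and type VI chains hold most of the bright rows, and the 2 SC IL-27 columns are dark for Col18a1 (38.6 to 41.1 CPM) and Col16a1 (1.28 to 1.80 CPM).

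The described genes did not share a single order of groups. The group with the highest mean CPM was D14 cabo for 9 of the 29 genes, among them Col3a1, Col1a1, Col1a2, Col5a1, Col5a2, Col11a1 and Col24a1 of the fibrillar class, with Col4a5 and Col6a5. No gene had its lowest group mean in D14 cabo. The lowest group mean was that of SC IL-27 for 16 genes. SC IL-27 was at the same time the highest group for 4 genes (Col8a1, Col12a1, Col14a1 and Col28a1). No share over all genes was computed for these counts, and the change in SC IL-27 had a trend with GC content, given below. The ratio of the highest to the lowest group mean ran from 1.96 for Col1a2 to 133.8 for Col16a1.

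**Figure D2:**
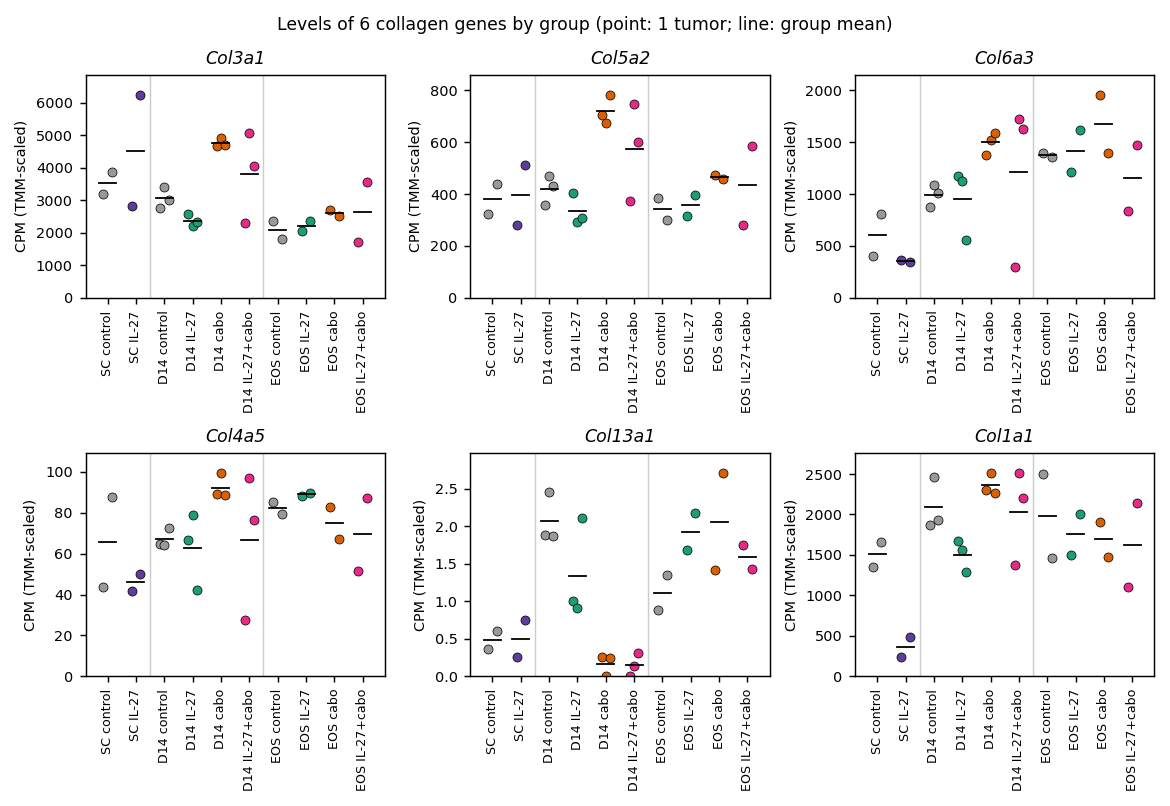
CPM of 6 collagen genes in the 10 groups, each point a tumor and each line a group mean, with axes starting at 0. Col3a1, Col5a2, Col6a3 and Col4a5 stand above the D14 controls in all 3 D14 cabo tumors, Col13a1 stands near 0 in the cabo and IL-27+cabo tumors at D14, and Col1a1 is lowest in SC IL-27.

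The first question at D14 was how cabo tumors differed from control tumors. Col5a2, Col3a1, Col6a3 and Col4a5 rose to 1.38 to 1.72 times their control level, while Col1a1, the main chain of bone matrix, did not pass the test. The risen genes were 4 of 29 described genes, all higher, where 1.89% of the 18627 genes tested were called in either direction (1.2% higher) by edgeR's quasi-likelihood test at an adjusted p under 0.05. All 10 fibrillar genes had a log2 fold change above 0, with a median of 0.42. The median was 0.25 over the 29 genes and -0.0085 over all genes tested, of which 48.9% lay above 0. An unadjusted p under 0.05 was seen for 14 of the 29 genes (18.9% of all genes), with 11 higher (9.64%) and 3 lower (9.27%).

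Col5a2 (type V alpha 2; chr1:45374321-45503282, minus) was at 356, 468 and 432 CPM in the controls and 706, 675 and 782 CPM under cabo. The groups did not overlap, and the lowest cabo tumor stood well above the highest control. The log2 fold change was 0.79 (SE 0.12, edgeR adjusted p = 0.0259). Col3a1, its neighbour on chromosome 1, was at 2758, 3421 and 3009 CPM against 4678, 4900.1 and 4704 CPM. The 3 cabo tumors were closer to each other than the controls were, and the groups did not overlap. Its log2 fold change was 0.64 (SE 0.11, edgeR adjusted p = 0.0376).

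Col6a3 (chr1:90765923-90843971, minus), which carries the long type VI chain and the endotrophin fragment, stood at 874, 1089 and 1011 CPM in the controls and 1378, 1521 and 1591 CPM under cabo, without overlap. This was a log2 fold change of 0.60 (SE 0.11, edgeR adjusted p = 0.0473). Of its partner chains, Col6a1 had a log2 fold change of -0.24 and Col6a2 of -0.40, neither past the test (adjusted p = 0.456 and 0.175 by edgeR). Col4a5 was at 64.7, 64.2 and 72.5 CPM against 89.2, 99.4 and 88.5 CPM, again without overlap. Its log2 fold change was 0.46 (SE 0.088, edgeR adjusted p = 0.0474).

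The type I chains did not pass the test. Col1a1 was at 1875, 2465 and 1934 CPM in the controls and 2306, 2508 and 2267 CPM under cabo, with overlapping groups. Its log2 fold change was 0.18 (SE 0.13, edgeR adjusted p = 0.506). Col1a2 was at 1537, 1496 and 1201 against 1797, 2104 and 1834 CPM, groups that did not overlap, with a log2 fold change of 0.44 (SE 0.13, edgeR adjusted p = 0.131). Over the 29 genes, 11 had non-overlapping groups with cabo higher, against 13.5% of all genes tested, and 3 (Col6a2, Col13a1 and Col28a1) with cabo lower, against 13.7%.

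Col13a1, a transmembrane collagen of neuromuscular junctions and other adhesion sites, had the lowest log2 fold change of the 29 genes. Its counts were 137, 188 and 136 in the controls and 18, 0 and 17 under cabo, or 1.88, 2.46 and 1.87 CPM against 0.257, 0 and 0.247 CPM. The count of 0 allows up to 0.0417 CPM in that tumor (3 counts, for counting error alone). The fitted log2 fold change was -3.61 (SE 0.83). Col13a1 passed the count filter through the controls, where it was high, so it is given by its values alone. Col24a1, a fibrillar chain of bone, stood at 2.32, 5.01 and 2.87 CPM against 7.95, 8.24 and 7.55 CPM, with a log2 fold change of 1.22 and an edgeR adjusted p of 0.0809.

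Ratios between chains were read beside these changes. Col3a1 per Col1a1, as a ratio of CPM per kb, was 0.928 to 1.04 in the D14 controls and 1.31 to 1.39 under cabo. Col5a2 per Col5a1 was 0.770 to 0.954 against 1.06 to 1.36, and Col6a3 per Col6a2 was 1.12 to 1.65 against 2.47 to 2.86. Col6a1 per Col6a2 was 2.92 to 3.52 against 3.56 to 3.78, and Col8a2, a low gene, per Col8a1 was 0.00269 to 0.00782 against 0.0112 to 0.0173. None of these 5 ratios overlapped between the groups. The other 3 of the 8 ratios computed did, Col1a2 per Col1a1 (0.321 to 0.433 against 0.412 to 0.443), Col5a3 per Col5a1 (0.756 to 1.26 against 0.672 to 0.845) and Col4a6 per Col4a5 (0.0433 to 0.122 against 0.0679 to 0.0797). These ratios were read after the gene changes were known and carry no test.

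Markers of other cells moved in the same tumors. The summed level of 16 skeletal muscle genes was 11.0 to 180.1 CPM in the controls and 1432 to 2169 CPM under cabo, and 7 of the 16 were called higher, with none of the 16 at 0 in all tumors of either group. The summed level of 8 tendon and synovium genes was 15.5 to 37.0 against 139 to 202 CPM (4 of 8 higher), that of 10 endothelial genes 258 to 360.3 against 157 to 179 CPM (4 of 10 lower), and that of 12 fibroblast genes 2607 to 2859 against 2807 to 2894 CPM (0 of 12 called by edgeR, 2 at an unadjusted p under 0.05). The summed level of 8 genes of mural cells, which wrap small vessels, was 188 to 309 against 458 to 568 CPM. Of these, 1 was called, lower, and at an unadjusted p under 0.05 2 were higher and 3 lower. Their log2 fold changes were 4 above 0 and 4 below (median 0.14, highest 3.71), so the sum does not speak for the list. Of the bone lists, 0 of 6 tested osteoblast and 0 of 5 tested chondrocyte markers were called by edgeR (1 each at an unadjusted p under 0.05). A fit with the mean log2 level of the muscle markers as a covariate called 0 of the 29 genes by edgeR. Its log2 fold changes were 0.30 for Col5a2, 0.24 for Col3a1, 0.18 for Col6a3 and 0.47 for Col4a5. The muscle level was -1.34 to 2.88 in the controls and 5.81 to 6.32 under cabo. With no overlap, such a fit can hardly separate it from treatment, and the part of muscle was not tested.

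The count also turned on single tumors. It was 0 without control mouse 7, without cabo mouse 21 and without cabo mouse 27, 1 (Col13a1) without cabo mouse 25, and 2 without control mouse 3. The fold changes themselves stayed higher in each of the 6 fits, at 0.68 to 0.87 for Col5a2, 0.56 to 0.72 for Col3a1, 0.51 to 0.67 for Col6a3 and 0.41 to 0.52 for Col4a5. The Col4a5 call was lost in each of the 6 fits (edgeR adjusted p = 0.0718 to 0.181). When trends in GC content and length were removed, the Col4a5 and Col6a3 calls were lost (edgeR adjusted p = 0.14 and 0.135). All 4 calls were lost in a fit without the count filter and in a single fit of all intratibial tumors. Of the 6 fits, the Col3a1 and Col6a3 calls each held in 1, without control mouse 5.

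The genes that process collagen are given by list, beside the 1.89% of all genes called at D14 under cabo. In cross-linking, 2 of 5 rose: Lox, which oxidizes lysines of collagen and elastin, from a mean of 55.3 to 125.8 CPM (log2 fold change 1.19), and Loxl4 from 43.1 to 61.3 CPM (0.51). Of 14 fibril-associated genes, Fmod, a small proteoglycan of tendon, rose from 1.21 to 23.4 CPM (4.27) and Fn1, fibronectin, from 2252 to 4217 CPM (0.91). Ltbp2, a matrix protein of microfibrils, was the 1 call among 12 genes of the TGF-beta axis (0.92). Colgalt2, which adds galactose to hydroxylysine, was the 1 call among 21 genes of modification and folding and fell from 1.53 to 0.341 CPM (log2 fold change -2.16). By edgeR, 0 of 7 tested procollagen cleavage genes (2 at an unadjusted p under 0.05) and 0 of 10 tested collagen receptors (2) were called.

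The second question at D14 was how IL-27 tumors differed from the same controls. No described gene was called by edgeR or by DESeq2, and 0% of the 18519 genes tested were called. At an unadjusted p under 0.05 there were 4 genes, all lower (2.76% of all genes in either direction, 1.85% lower): Col1a2, Col12a1, Col1a1 and Col5a1. Col1a2 was at 1022, 988 and 922 CPM, below each control (log2 fold change -0.51, SE 0.15). Col1a1 was at 1670.5, 1557 and 1285 CPM, also below each control (-0.45, SE 0.18). Col12a1, a FACIT of tendon and strained tissue, was at 12.5, 13.9 and 16.2 CPM in the controls and 11.1, 6.76 and 6.52 CPM under IL-27 (-0.78, SE 0.25). All had an edgeR adjusted p of 1.

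Of the 29 genes, 7 had non-overlapping groups with IL-27 lower (4.94% of all genes tested) and 0 with IL-27 higher (2.81%). The median log2 fold change was -0.20 over the 29 genes and 0.023 over all genes. Col3a1, at 2584, 2218 and 2331 CPM, was among the 7 (log2 fold change -0.34, edgeR adjusted p = 1). As a share of all counts the 42 genes took 1.04% ± 0.131 (SD, n = 3) in IL-27, 1.26% ± 0.135 in control and 1.54% ± 0.0509 in cabo tumors. Fibroblast markers summed to 1999 to 2132 CPM in IL-27 against 2607 to 2859 CPM in control (0 of 12 called by edgeR, 2 lower at an unadjusted p under 0.05), and muscle markers to 38.9 to 2211 CPM against 11.0 to 180.1 CPM (0 of 16, 3 higher).

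In the IL-27+cabo tumors of D14 the collagens varied widely within the group. Mouse 20 held 0.636% of its counts on the 42 genes, against up to 1.66% in the other tumors of the group. Col6a3 was at 294, 1720.2 and 1623 CPM in mice 20, 22 and 24 and Col3a1 at 2314, 5053 and 4061 CPM. Mouse 20 lay under the D14 controls for both genes, and the other tumors of the group lay above them. Mouse 20 also had the fewest genes detected of the group (21269, against 23739 and 24028) and a Pearson r of at most 0.963 with the others, which had 0.988 between them. Its fibroblast markers summed to 1524 CPM, against 3310 and 2880 CPM in mice 22 and 24. Against control, 0 of the 12 fibroblast markers were called in this group by edgeR, and 0 had an unadjusted p under 0.05. The part of these in the collagen levels was not tested.

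Against control, 0 of the 29 genes were called in IL-27+cabo by edgeR, where 0.064% of 18750 genes were (0.0213% higher, 0.0427% lower). An unadjusted p under 0.05 was seen for 5 (6.2% of all genes, 4.23% higher and 1.97% lower), and DESeq2 called 1, Col13a1. Col13a1 was at 0, 0.135 and 0.31 CPM (counts 0, 10 and 22), below each control. The 0 allows up to 0.0559 CPM. Its fitted log2 fold change was -3.74 (SE 1.01) and, without mouse 20, -3.21. Here too it passed the count filter through the controls, and nothing is read from its tests.

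The other genes at an unadjusted p under 0.05 were Col27a1, a fibrillar chain of cartilage, at 32.1, 45.1 and 39.4 against 99.3, 57.7 and 56.5 CPM (0.92, SE 0.31), Col18a1 at 1245, 2129 and 1968 against 672, 1236 and 1087 CPM (-0.81, SE 0.32), Col24a1 (0.95) and Col16a1 (0.48). Their edgeR adjusted p-values were 0.609 to 0.794. Groups did not overlap for 3 genes higher in IL-27+cabo (7.04% of all genes tested) and 2 lower (8.57%). The muscle markers summed to 1867 to 5003 CPM in these tumors, and 0 of 16 were called by edgeR with all 16 higher at an unadjusted p under 0.05. Endothelial markers summed to 119 to 154 CPM against 258 to 360.3 CPM in control (0 of 10 called by edgeR, 8 lower at an unadjusted p under 0.05). Tendon and synovium markers summed to 42.0 to 131 CPM against 15.5 to 37.0 CPM (0 of 7 tested called, 3 higher).

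The interaction of IL-27 and cabo asked whether the effect of both treatments differed from the sum of the single effects on the log2 scale. For 0 of the 29 genes was it called by edgeR or DESeq2 (0% of 19899 genes), and 0 had an unadjusted p under 0.05 (1.88% of all genes, 1.4% above 0). Col3a1 had an interaction of 0.026 (SE 0.32), Col5a2 of -0.029 (SE 0.33) and Col6a3 of -0.27 (SE 0.69). For Col6a3 the SE was larger than its log2 fold change under cabo alone.

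**Figure D3:**
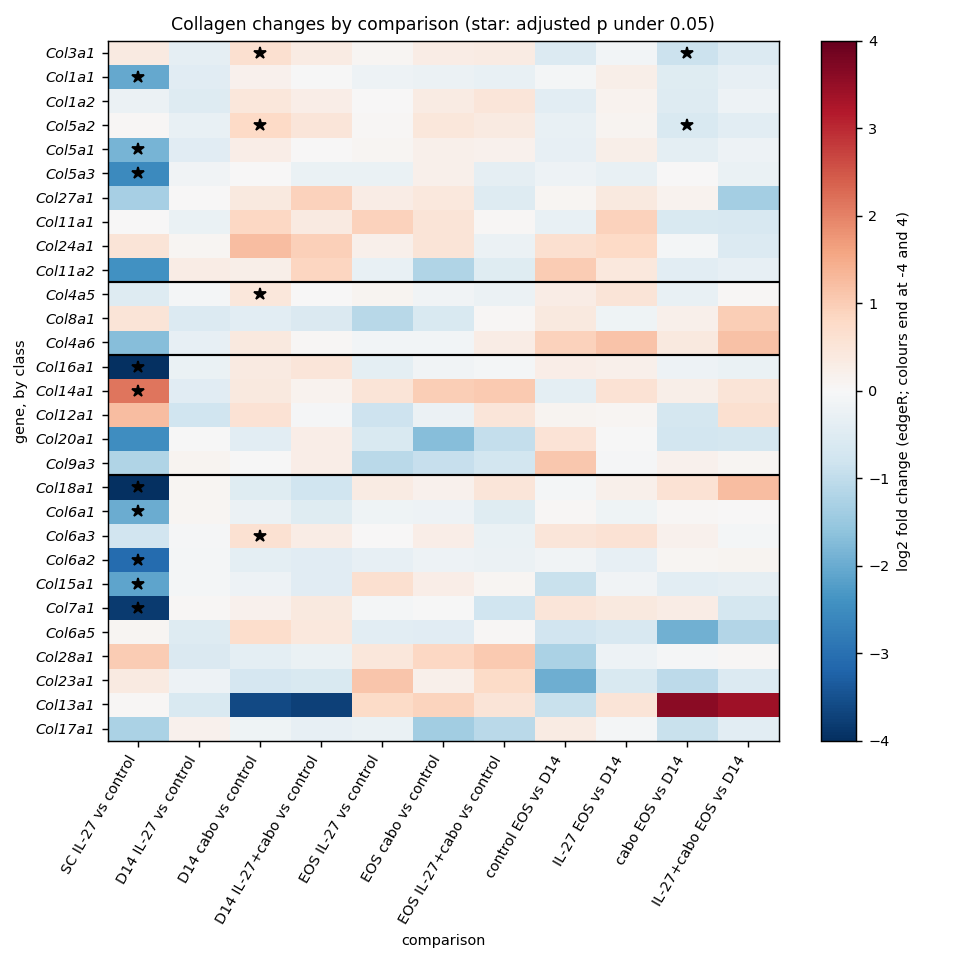
edgeR log2 fold changes of the 29 described genes (rows, by class) in 11 pairwise comparisons (columns), with a star where the adjusted p was under 0.05. Stars stand in 3 columns: 10 in SC IL-27 against control, 4 in D14 cabo against control and 2 in cabo EOS against D14. Several columns share their control tumors.

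At the end of study the treated groups were set against the EOS controls, with 2 tumors a group. All 4 EOS groups were in the fit and shared the estimate of spread. By edgeR and by DESeq2, 0 of the 29 genes were called in IL-27, in cabo or in IL-27+cabo, and 0% of the 20026 genes tested were called in each. At an unadjusted p under 0.05 there were 4 genes in IL-27 (3.25% of all genes, 1.57% higher and 1.68% lower), 2 in cabo (8.9%) and 2 in IL-27+cabo (14.2%). Groups did not overlap for 7 genes higher and 4 lower in IL-27 (17% and 15.9% of all genes), 10 and 5 in cabo (21.9% and 21.1%), and 3 and 2 in IL-27+cabo (20.2% and 22%).

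Col15a1, a basement membrane collagen of muscle and vessels, was at 100.2 and 91.2 CPM in the EOS controls and 188 and 114 CPM in EOS IL-27 (log2 fold change 0.65). Col8a1, a short-chain network collagen of vessels, went from 148 and 76.5 to 43.1 and 62.2 CPM (-1.11). Both had an edgeR adjusted p of 1, as had Col23a1 (1.09) and Col12a1 (-0.84).

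Col17a1, the hemidesmosome collagen of epithelia, stood at 1.42 and 2.51 CPM in the EOS controls, 0.948 and 0.55 CPM in EOS cabo and 1.1 and 0.76 CPM in EOS IL-27+cabo. The controls lay above both other groups, which share those controls. The log2 fold changes were -1.39 and -1.07, with edgeR adjusted p-values of 0.485 and 0.343. Col11a2, a minor fibrillar chain, had -1.19 in EOS cabo, and Col28a1, a chain of peripheral nerve, had 1.04 in EOS IL-27+cabo.

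The 4 genes that rose under cabo at D14 did not pass the test under cabo at EOS. Their log2 fold changes against the EOS controls were 0.44 for Col5a2, 0.31 for Col3a1, 0.28 for Col6a3 and -0.14 for Col4a5, at edgeR adjusted p-values of 0.714 to 0.892. A call at one time and none at the other does not show a difference. That difference was tested itself as the cabo change at EOS minus that at D14. Muscle markers summed to 9.24 to 17.0 CPM in the EOS controls, 142 to 1131 CPM in EOS cabo and 127 to 266 CPM in EOS IL-27+cabo, with 0 of 16 called by edgeR in either and 16 and 14 higher at an unadjusted p under 0.05.

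The test of that difference called 0 of the 29 genes by edgeR (0.127% of 20402 genes), 6 had an unadjusted p under 0.05 (11.3%), and DESeq2 called 1, Col13a1. Col13a1 changed by -3.61 at D14 and by 0.88 at EOS, a difference of 4.50 (SE 1.16, unadjusted p = 0.00314 and adjusted p = 0.265 by edgeR, adjusted p = 0.00307 by DESeq2). The other 5 were Col4a5 (-0.60), Col28a1 (1.22), Col6a5 (-1.15), Col11a2 (-1.44) and Col18a1 (0.65). In the same test 2 of 10 endothelial markers were called higher by edgeR, and 9 of 10 were higher at an unadjusted p under 0.05. Their part in the collagen values was not tested.

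Within each treatment, EOS tumors were then compared with D14 tumors. In cabo tumors Col3a1 and Col5a2 fell. They were 2 of the 29 genes called by edgeR, both lower, where 2.09% of 19144 genes were called (1.14% lower), and 13 genes had an unadjusted p under 0.05 (17.6% of all genes). Because the D14 cabo tumors enter this comparison and the one against control, the opposite signs are not separate evidence.

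Col3a1 was at 2686 and 2518 CPM at EOS, under each of the D14 cabo tumors and under each D14 control. Its log2 fold change was -0.87 (SE 0.081, edgeR adjusted p = 0.00798). Col5a2 was at 475 and 458 CPM at EOS, under each D14 cabo tumor, with a log2 fold change of -0.62 (SE 0.087, edgeR adjusted p = 0.0243). Col1a1 and Col1a2 had lower EOS values without overlap (log2 fold changes -0.47 and -0.52) and edgeR adjusted p-values of 0.122 and 0.0613.

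Col6a5, a type VI chain beside its paralogs Col6a4 and Col6a6 on chromosome 9, with which counting could have split reads, was at 21.9, 31 and 16.5 CPM at D14 and 8.07 and 4.18 CPM at EOS, a log2 fold change of -1.91 (SE 0.36, edgeR adjusted p = 0.0544). Col13a1 was at 1.42 and 2.71 CPM, a range that takes in all 3 D14 controls, with a log2 fold change of 3.61 (SE 0.96, edgeR adjusted p = 0.127, DESeq2 0.0102). Col6a3 was at 1955 and 1392 CPM (0.17, edgeR adjusted p = 0.631). Groups did not overlap for 5 genes higher at EOS (17.9% of all genes) and 11 lower (18.5%).

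The number of called genes was 0 without D14 mouse 21, 1 without D14 mouse 27 or EOS mouse 23, and 6 without EOS mouse 19. DESeq2 called 11 (2 higher, 9 lower), and its share of all genes is not given here. Tendon and synovium markers fell (4 of 8 called, Kera among them, from 139 to 202 CPM in sum at D14 to 10.4 to 27.6 CPM at EOS), endothelial markers rose (8 of 10, from 157 to 179 to 361 to 430 CPM), mural cell markers gave 2 of 8 calls, both higher (sums of 458 to 568 CPM at D14 and 237 to 390.4 CPM at EOS), and muscle markers gave 0 of 16 calls by edgeR (4 at an unadjusted p under 0.05) with sums of 142 and 1131 CPM at EOS. Fibroblast markers summed to 2807 to 2894 CPM at D14 and 1773 to 1949 CPM at EOS, without overlap, with 2 of 12 called lower and 7 lower at an unadjusted p under 0.05. The mural cell sum fell while its 2 calls were higher, so that sum does not speak for the list. The part of these markers in the collagen changes was not tested.

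Of the collagen-processing genes called under cabo at D14, Lox, Fmod, Ltbp2 and Colgalt2 were called the other way here, with the D14 cabo tumors in both comparisons. The lists held 1 call of 5 in cross-linking, 4 of 14 among fibril-associated genes, 2 of 12 in the TGF-beta axis and 1 of 21 in modification and folding, beside 2.09% of all genes, and 0 of 8 tested cleavage genes and 0 of 10 tested receptors by edgeR (3 and 1 at an unadjusted p under 0.05). Lox fell to a mean of 54.9 CPM (log2 fold change -1.19), Fmod to 1.36 CPM (-4.09) and Ltbp2 to 20.7 CPM (-1.42), and Colgalt2 rose to 3.12 CPM (3.19). Prelp (-1.53) and Dcn (-0.48), leucine-rich proteoglycans of the matrix, and Ccn2 (-1.04) were called lower as well. The remaining call, Kera, was at 1.38 to 2.40 CPM at D14 and 0 CPM in both EOS tumors. It passed the count filter through the D14 tumors, where it was high, so it is given by its values alone.

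In control tumors 0 of the 29 genes were called between EOS and D14 by edgeR (0.104% of 19292 genes), and 8 had an unadjusted p under 0.05 (13.1%). DESeq2 called 5 (1 higher, 4 lower), and its share of all genes is not given here. Col28a1 was at 5.5, 7.14 and 5.87 CPM at D14 and 2.63 and 2.5 CPM at EOS (-1.26, SE 0.25). Col15a1 went from 130.2, 216 and 186 to 100.2 and 91.2 CPM (-0.88, SE 0.21) and Col23a1 from 4.98, 9.94 and 4.16 to 1.22 and 2.08 CPM (-1.94, SE 0.48).

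EOS values lay under D14 values in all 3 genes, and the edgeR adjusted p-values were 0.147 to 0.202. DESeq2 gave adjusted p-values of 0.000165, 0.00997 and 0.0031 for them. Col3a1 also read lower at EOS in the controls (-0.54) and Col6a3 higher (0.48), neither past the test (edgeR adjusted p = 0.28 and 0.242). Of 12 fibroblast markers in the controls, 0 were called by edgeR and 6 were lower at EOS at an unadjusted p under 0.05.

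In IL-27 tumors 0 of the 29 genes were called between EOS and D14 by edgeR or DESeq2 (0% of 19078 genes), and 2 had an unadjusted p under 0.05 (5.05%). These were Col4a6, from 4.94, 7.09 and 2.59 to 10.3 and 11.3 CPM (1.15), and Col11a1, from 17.5, 10.3 and 8.75 to 17.5 and 28.2 CPM (0.91). Both were higher, with an edgeR adjusted p of 0.818. With the GC and length correction 3 of the 29 genes had an unadjusted p under 0.05 by edgeR, all lower. The median log2 fold change went from 0.13 to -0.060. In IL-27+cabo tumors 0 were called by edgeR or DESeq2 (0% of 19365 genes), and 2 had an unadjusted p under 0.05 (3.83%). Col13a1 went from 0, 0.135 and 0.31 to 1.75 and 1.43 CPM (3.39, SE 1.23), where it passed the count filter through the EOS tumors, and Col27a1 from 99.3, 57.7 and 56.5 to 21.5 and 35.7 CPM (-1.36, edgeR adjusted p = 0.925). Muscle markers had negative log2 fold changes in both treatments, with 0 of 16 called by edgeR and 16 of 16 at an unadjusted p under 0.05 in each, and 9 of 10 endothelial markers were higher at that level in IL-27+cabo, with 0 called.

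In the subcutaneous tumors the question was how IL-27 vector tumors differed from empty vector tumors. Col16a1, Col18a1, Col6a2, Col5a3, Col7a1, Col6a1, Col15a1, Col5a1 and Col1a1 fell, and Col14a1 rose. These 10 of 29 genes stand against 20% of 19360 genes called by edgeR (3.52% higher, 16.5% lower), and 14 genes had an unadjusted p under 0.05 (35.4%). Groups did not overlap for 3 genes higher (31.6% of all genes) and 16 lower (35.3%). The median log2 fold change was -1.19 over the 29 genes and 0.038 over all genes. With the trends in GC content and length across all genes removed, 3 of the 10 genes were called by edgeR (Col16a1, Col18a1 and Col6a2), Col5a3, Col6a1, Col5a1 and Col1a1 changed sign, and the median became 0.58.

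Col18a1 was at 1049 and 951 CPM in SC control and 41.1 and 38.6 CPM in SC IL-27, where all 20 intratibial tumors had at least 672 CPM. The log2 fold change was -4.63 (SE 0.36, edgeR adjusted p = 0.00138). Col16a1 went from 68.7 and 112 to 1.8 and 1.28 CPM, a log2 fold change of -5.85 (SE 0.48, edgeR adjusted p = 0.00138). Col6a2 went from 499 and 513 to 49.5 and 69.5 CPM (-3.08, SE 0.35, edgeR adjusted p = 0.00209).

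Col5a3 went from 340.0 and 402 to 66.6 and 58.2 CPM (-2.55), Col7a1 from 11.2 and 22.8 to 1.46 and 0.89 CPM (-3.82) and Col6a1 from 950.0 and 887 to 190.0 and 276 CPM (-1.97). Col15a1 went from 85 and 143 to 20.3 and 32.3 CPM (-2.11) and Col5a1 from 267 and 401 to 81.8 and 103 CPM (-1.85). In each of these genes the IL-27 tumors lay below both controls, with edgeR adjusted p-values of 0.00323 to 0.0130. Col14a1, the FACIT undulin, was at 14.8 and 30.4 CPM in SC control and 48 and 151 CPM in SC IL-27 (2.13, SE 0.60, edgeR adjusted p = 0.0489), and without SC control tumor 1, SC control tumor 2 or SC IL-27 tumor 2 its edgeR adjusted p was 0.23, 0.0713 and 0.268. Without SC IL-27 tumor 1 the edgeR adjusted p was 0.0614 for Col6a1, 0.0781 for Col15a1, 0.0908 for Col5a1 and 0.0674 for Col1a1. The Col5a1 call was also lost without SC IL-27 tumor 2 (edgeR adjusted p = 0.0552), and the Col1a1 call without SC control tumor 1 (0.0622). Such a fit leaves 1 tumor in a group, which is assumed to vary like the other group.

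The type I chains were read apart. Col1a1 fell from 1348 and 1666 to 234 and 489 CPM (-2.06, SE 0.43, edgeR adjusted p = 0.0163), while Col1a2 was at 1458 and 1980.2 and 994 and 1939.7 CPM (-0.23) and Col3a1 at 3185 and 3879.6 and 2812 and 6239.8 CPM (0.36), both with overlapping groups. Col1a2 per Col1a1 was 0.571 to 0.628 in SC control and 2.10 to 2.25 in SC IL-27, and 0.263 to 0.526 in the 20 intratibial tumors. Col3a1 per Col1a1 was 1.56 to 1.58 against 8.05 to 8.53, and 0.632 to 1.39 in the intratibial tumors.

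**Figure D4:**
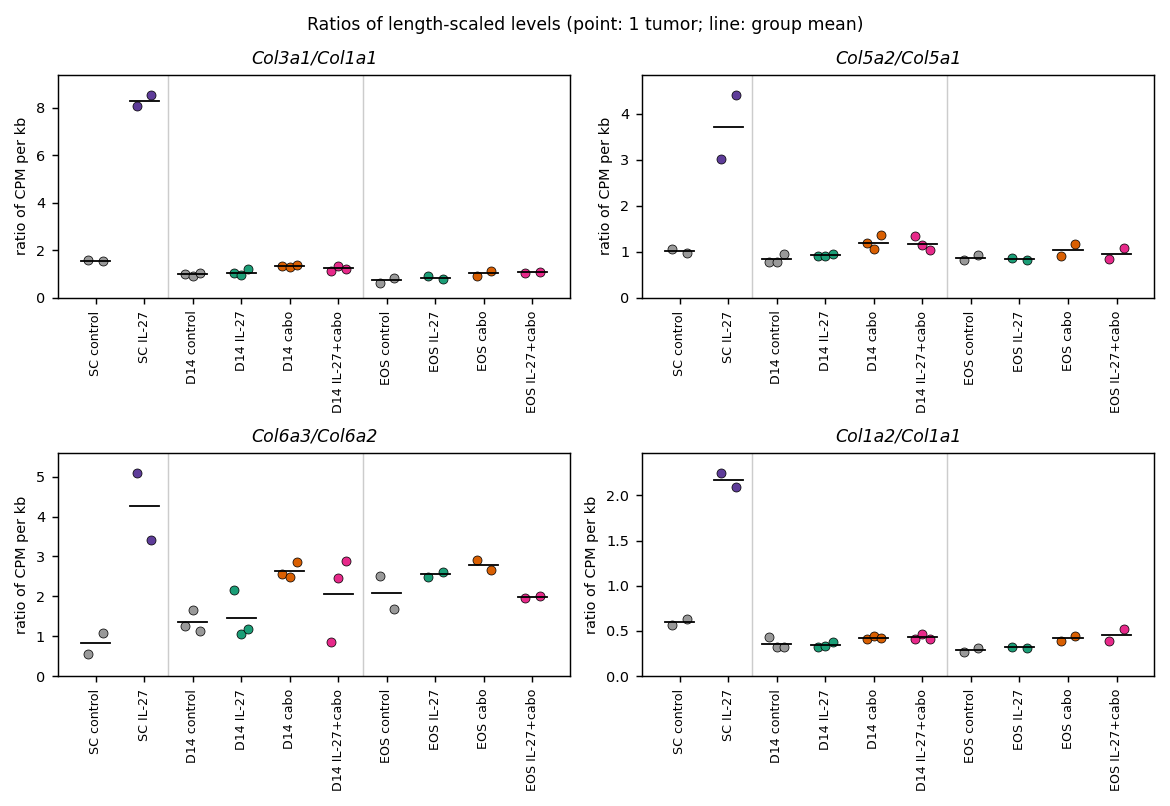
Ratios of CPM per kb between 4 pairs of collagen chains in the 10 groups, each point a tumor and each line a group mean, with axes starting at 0. Col3a1 per Col1a1 and Col1a2 per Col1a1 stand apart in the 2 SC IL-27 tumors (8.05 to 8.53 and 2.10 to 2.25), and Col6a3 per Col6a2 and Col3a1 per Col1a1 are higher in D14 cabo than in D14 control.

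The SC change was set beside GC content, here that of the longest transcript. When all genes tested were split evenly into 4 sets by GC content, the highest set (53.86 to 78.34%) had a median log2 fold change of -2.05 and held 18 of the 29 described collagens, whose median was -2.02. The lowest set (17.14 to 44.5%) had a median of 0.85 and held none of them. The median GC content was 55.7% for the described collagens and 49.1% for the genes tested. Col1a1 had a GC content of 58.89%, Col1a2 of 55.67%, Col3a1 of 52.5% and Col14a1 of 49.7%.

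When the trends with GC content and length were removed across all genes, 3 of the 29 genes were called by edgeR, where 7.88% of all genes were (5.38% lower): Col16a1 (-2.85, adjusted p = 0.0116), Col18a1 (-1.70, 0.0158) and Col6a2 (-1.44, 0.0292), all lower. Col5a3, Col6a1, Col5a1 and Col1a1 went to 0.46, 0.17, 0.59 and 0.58. Muscle markers summed to 4.41 to 17.2 CPM in SC control and 437 to 1195 CPM in SC IL-27 (15 of 16 higher, 1 at 0 in both controls). The sum of 8 marrow myeloid markers was 0.867 to 1.97 against 37.1 to 38.0 CPM. Of these 8, 4 were at 0 in both SC controls and could pass the count filter only through SC IL-27, so the list is given by its sums alone. Fibroblast markers summed to 1971 to 2054 against 3056 to 3887 CPM, with 3 of 12 called higher and 2 lower. Markers of mural cells summed to 143 to 195 against 261 to 1046 CPM, with 3 of 8 called higher and 2 lower. The part of these cells in the collagen changes was not tested.

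**Figure D5:**
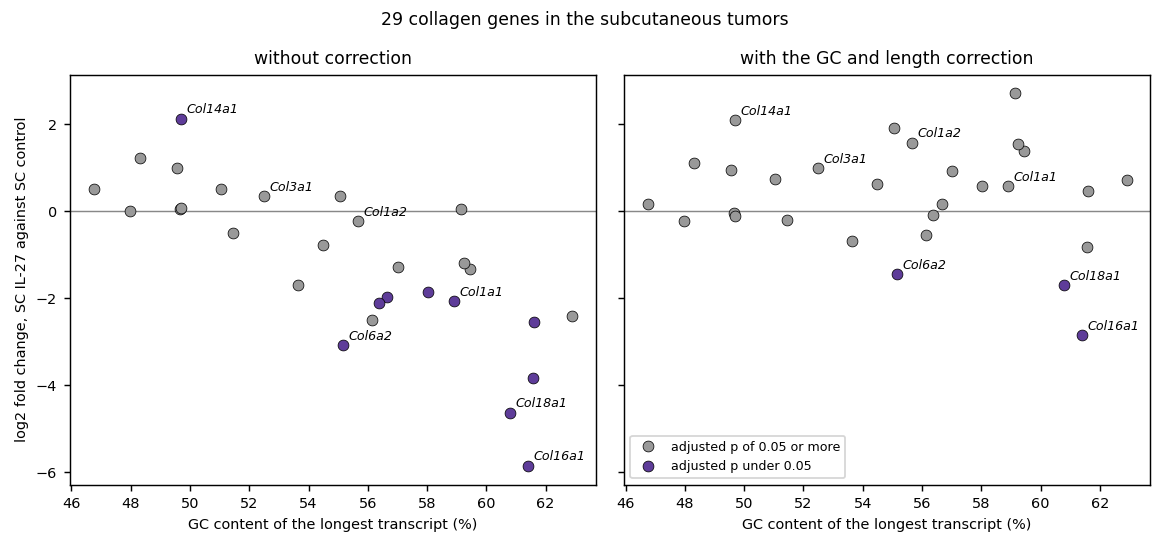
Log2 fold change of the 29 described genes in SC IL-27 against SC control (y axis) by the GC content of the longest transcript in % (x axis), without (left) and with (right) the correction for GC content and length. Purple points had an adjusted p under 0.05: 10 on the left, where points above 54% GC lie mostly below 0, and 3 on the right.

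The processing genes gave calls in both directions in the SC tumors, without the correction, beside 16.5% of all genes called lower and 3.52% higher. Of 21 genes of modification and folding, 7 fell, among them Plod3, a lysyl hydroxylase (-4.33), and Fkbp10, a collagen chaperone (-4.12), and 1 rose, Plod2 (1.41), named after its value was seen. Of 7 tested cleavage genes 3 fell, Bmp1, the C-propeptidase (-4.22), its enhancer Pcolce (-4.28) and Adamts14 (-3.25). Of 14 fibril-associated genes Lum (1.35), Ogn (3.52) and Aspn (1.94) rose and Tnxb fell (-3.58). Loxl1 (-2.66) and Loxl3 (-1.58) fell among 5 cross-linking genes, 2 of 10 tested receptor and uptake genes rose and 3 fell, and 3 of 12 genes of the TGF-beta axis fell.

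The control tumors of the SC and D14 intratibial experiments were set side by side without a test, since implantation site, line (TC2Ras or TC2Ras-Luc), harvest and gavage differ together and cannot be told apart. The labels also give the experiments separate codes. For 16 of the 29 genes the ranges overlapped. SC control was lower for 11 genes and higher for 2 (Col6a5 and Col9a3). No share over all genes was computed for these counts, so they are not read as a trait of collagens. Col11a1, a nucleator of cartilage and bone fibrils, was at 2.01 to 3.45 CPM in SC control and 13.9 to 16.1 CPM in D14 control. Col23a1 was at 0.719 to 0.932 against 4.16 to 9.94 CPM, and Col13a1 at 0.359 to 0.599 against 1.87 to 2.46 CPM.

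The 13 genes under the limit were Col2a1, Col4a3, Col4a4, Col6a4, Col6a6, Col8a2, Col9a1, Col9a2, Col10a1, Col19a1, Col22a1, Col25a1 and Col26a1, with means of 0.0118 to 0.453 CPM. The cartilage genes Col2a1, Col9a1, Col9a2 and Col10a1 were among them. Their highest value in a tumor was 3.71 CPM, for Col6a6 in an SC IL-27 tumor. Between 7 and 9 of the 13 passed the count filter in a comparison, and a low gene can pass through the group in which it is high.

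Col22a1, a FACIT of the myotendinous junction, was the 1 of 8 tested low genes that edgeR called in D14 cabo against control and in cabo EOS against D14. It passed the count filter in both through the D14 cabo tumors, where it was high, so it is given by its values alone. At D14 it was at 0.192, 0.236 and 0.0824 CPM in control, 1.03, 1.45 and 1.35 CPM in cabo and 0.82, 0.58 and 0.113 CPM in IL-27+cabo, and at 0.11 and 0.217 CPM in EOS cabo. The cabo tumors of D14 lay above all other tumors of these groups.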

How the data were processed

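The values used were the whole-number counts per gene that the authors deposited, for 24 mouse tumors. Paired-end sequencing used strand-specific libraries of poly(A) RNA. Per the study's methods, FastQC served for read quality, HISAT2 for mapping to the mouse genome and StringTie for transcript assembly and levels. The submitters' processing notes name GRCh38 as the build, but the gene IDs are mouse. Versions, the counting program and its strand setting are not given in the sources used here. Symbols came from GENCODE M21 (GRCm38), which holds 55141 of the 55401 IDs. A pair of collagen genes and some marker genes are not reported here.

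The members and gene lists were chosen with earlier results of these data known. Counts were filtered (filterByExpr), TMM-scaled and tested with edgeR 4.0.16 (R 4.3.3) by the quasi-likelihood F test, two-sided. Benjamini-Hochberg adjustment was over all genes tested, with a threshold of 0.05. Most comparisons fitted only the pair of groups compared. The EOS treatments were set against control in a fit of all 4 EOS groups, which shared the estimate of spread. The interaction and the tests of a difference between changes used 4 groups. Alternatives were DESeq2 1.42.0, other size factors, no filter, a GC and length correction (splines of 5 degrees of freedom), all intratibial tumors in 1 fit, a muscle score (mean log2 CPM of 16 markers, prior count of 2) as covariate, the replicate number and leaving out each tumor. Any member could be named; values per tumor went to at most 10 calls with the smallest p or, with no call, to the 3 smallest p, and at most 4 genes of a pathway list were named. Tests were checked on simulated counts with 200 genes changed 4-fold. For D14 cabo, 200 were recovered with 7 false calls (18525 genes). For SC, 45 were recovered with 0 false calls (18966 genes). With a GC trend added to the SC counts, 99 were recovered with 332 false calls uncorrected and 52 with 1 false call corrected (19243 genes). Promoters came from RefSeq (GRCm38.p6).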

Additional observations from a re-analysis of the deposited data

Results flagged for a closer look

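The IL-27 change in the subcutaneous tumors differed from that in the D14 intratibial tumors for 11 of the 29 described collagens by an edgeR test of the difference, where 23.5% of 20977 genes did. The log2 difference, subcutaneous minus D14, was -5.56 for Col16a1, -4.69 for Col18a1, -3.86 for Col7a1, -2.97 for Col6a2, -2.70 for Col11a2, -2.39 for Col5a3, -2.03 for Col6a1, -2.02 for Col15a1, -1.58 for Col1a1, -1.37 for Col5a1 and 2.61 for Col14a1, with edgeR adjusted p-values of 4.2e-06 to 0.0427. Beside these values stand the trend of the subcutaneous change with GC content and the marker levels given with that comparison, whose part was not tested for these differences. Site, line, harvest, gavage and the experiments' separate label codes differ with it and cannot be told apart.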

How the results depend on the processing

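Over 607 refits of 55 gene results, 596 kept their direction, 11 reversed, 56 lost and 18 gained a call. In the SC comparison the 10 called collagens became 3 with the GC and length correction and 7 to 10 without a tumor. Numbers 1 and 2 occur in both SC groups, and nothing says that a number marks a shared mouse, litter or day. The deviations of same-numbered tumors had r = 0.0316 over 19360 genes. With 2 tumors a group this value cannot decide whether they share more than a number. A replicate block left the count at 10, and with the correction it was 6 (3 higher, 3 lower). The reversals there were Col5a3 (0.46), Col6a1 (0.17), Col5a1 (0.59) and Col1a1 (0.58) with the correction, and 0.46, 0.15, 0.59 and 0.49 with block and correction.

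For D14 cabo the 4 calls became 11 with DESeq2 (10 higher, 1 lower). The share of all genes that DESeq2 called is not given here for any comparison, so its counts cannot be set against it. The 4 calls became 0 without the filter, 2 with the correction (Col3a1 and Col5a2) and 0 with all intratibial tumors in 1 fit. They became 0 with the muscle score, which did not overlap between these groups, and 0 to 4 without a tumor. With the muscle score Col24a1 (-0.13) and Col1a1 (-0.34) reversed, as did Col27a1 (-0.076) in D14 IL-27+cabo, where DESeq2 called 1 and fits without a tumor 0 to 1. For cabo EOS against D14 the 2 calls became 11 with DESeq2, 1 without the filter, 0 in 1 fit and 0 to 6 without a tumor. DESeq2 called 5 in control EOS against D14 and 1 for the cabo change between times. The other comparisons stayed at 0 without any 1 tumor. Causes were not tested. Where a group of 2 lost a tumor, the lone tumor was assumed to vary like the other group or groups of its fit. With 2 tumors a group, large changes may also be missed.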
